A study of Mus musculus with 2 samples.

Results

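The genes of the B cell receptor and of antibody secretion were followed through single cells of subcutaneous ovarian tumors grown in wild-type (WT) and tight skin (TSK) mice. They are 7 of the 32285 genes counted: Ighm, Ighd, Cd79a, Cd79b, Ms4a1, Igkc and Jchain, chosen by name and matched to the gene symbols of the files. The study asked which cell populations differ between tumors of the 2 genotypes. Each genotype gave 1 library of pooled tumors from female C57BL/6 mice 6 to 8 weeks old, all injected under the skin with the same line, SO. SO derives from ovarian surface epithelial or stem cells without p53 and carries HRAS V12 and MYC from lentiviral vectors, so the tumors of both groups model a single engineered line. TSK mice, kept by backcrossing to C57BL/6, carry an internal duplication in Fbn1, the gene of the microfibril protein fibrillin-1. The number of copies of that allele is not in the labels, but the study states that mice with 2 copies die before birth and those with 1 copy live. Since each genotype is 1 library, WT and TSK were compared by size and not by a test. Intervals in the text are exact 95% intervals and cover counting error only.

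A B cell recognises antigen through a membrane immunoglobulin paired with a signalling dimer. Naive B cells splice the same heavy chain transcript to the μ constant region (Ighm) or the δ constant region (Ighd), and most mouse B cells join the heavy chain to a κ light chain, whose constant region is Igkc. The dimer of Cd79a and Cd79b (Igα and Igβ) carries the signal into the cell, and Ms4a1 (CD20) is a surface protein of mature B cells that plasma cells lose. Plasma cells secrete antibody and transcribe the immunoglobulin genes and Jchain, which joins IgM and IgA into polymers, at very high levels. Because droplets also capture free RNA, a single molecule of such a gene does not mark a B cell, and detection of several genes in the same cell was used instead.

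Molecules were counted as unique molecular identifiers (UMIs). The files held 2332 WT and 4436 TSK barcodes, of which 263 were present in both libraries and were left out. Cells with at least 200 genes, at least 500 UMIs and at most 10% mitochondrial UMIs were kept, 1442 in the WT library (17070622 UMIs, median 7658.5 per cell) and 2961 in the TSK library (45661542 UMIs, median 7302). Clusters made without the members and the other immunoglobulin genes were named from marker lists. WT held 142 cancer-like, 519 lymphocyte-like, 418 macrophage-like and 35 neutrophil-like cells, and TSK held 1300, 360, 556 and 221. The cancer-like clusters carried the epithelial and cancer markers Krt18, Lgals7 and Cdkn2a. Cancer-like cells were deeper in TSK (median 24864.5 UMIs) than in WT (13623), and macrophage-like cells were shallower (5473.5 against 9207.5).

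The members lie on 6 mouse chromosomes, and all 7 identifiers of the files matched the GENCODE M21 annotation of GRCm38. Ighm (chr12:113418558-113422730) and Ighd (chr12:113406604-113416324) are neighbours on the minus strand, 2233 bases apart. Cd79a is on the plus strand of chromosome 7 (chr7:24897381-24902197, 5 exons) and Cd79b on the minus strand of chromosome 11 (chr11:106311341-106314762, 6 exons). Ms4a1 (chr19:11249675-11266241, minus strand) overlaps the antisense gene 4930526L06Rik, Igkc (chr6:70726435-70726966, plus strand, 1 exon) overlaps the noncoding gene Gm30211 on the same strand, and Jchain lies at chr5:88519809-88527891 on the minus strand. Reads of genes that overlap on the same strand can be split between them, so the count of Igkc carries that uncertainty.

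Cd79a and Cd79b share the motif through which the receptor signals, a pair of tyrosines in the cytoplasmic tail that Src-family kinases phosphorylate. The stretch of 45 coding bases from the first to beyond the second of these tyrosines is shown because the rule for B cells below uses both partners. It was read on the coding strand from GRCm38, spans exons 4 and 5 of Cd79a (chr7:24901296-24901469) and exons 5 and 6 of Cd79b (chr11:106311867-106312012), with the intron left out, and capitals mark the tyrosine codons.
Cd79a: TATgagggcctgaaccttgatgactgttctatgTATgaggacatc
Cd79b: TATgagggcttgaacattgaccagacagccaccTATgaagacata
In both genes 10 codons stand between the tyrosine codons, and 31 of the 45 bases (68.9%) are identical. The upstream sequence of Cd79a is shown because its UMIs were also counted in cells that are not B cells. The 134 bases before the annotated gene start, from RefSeq (GRCm38.p6, chr7:24897247-24897380, plus strand), hold 1 of the motifs searched, the E-box CAGGTG, in capitals, the core letters of sites that E proteins can bind.
Cd79a upstream: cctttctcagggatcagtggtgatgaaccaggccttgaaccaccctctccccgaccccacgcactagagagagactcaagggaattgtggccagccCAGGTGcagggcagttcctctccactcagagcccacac
CAGGTG was searched on both strands and is present in 17.3% of 32526 windows of 250 bases before a gene start. The RefSeq window of Cd79a reaches beyond the stretch shown and there also held the Ets motif AGGAAGTG, present in 3.16% of windows. The window of Jchain held none of the 5 motifs searched, which were the octamer ATGCAAAT, the E-boxes CAGGTG and also CAGCTG, the EBF motif CCCNNGGG and the Ets motif. Of the 7 members, 2 had an entry in the promoter table.

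Over all cells kept, each heavy chain, light chain and receptor gene had few UMIs in both libraries. Ighm, the μ heavy chain, was counted 219 times among 108 WT cells and 306 times among 142 TSK cells, which is 12.8 counts per 1000000 UMIs (CPM, 95% interval 11.2 to 14.6) in WT and 6.70 CPM (5.97 to 7.5) in TSK. Cd79a had 51 UMIs in 28 WT cells and 281 in 200 TSK cells, 2.99 and 6.15 CPM. Igkc, the κ light chain, had 90 UMIs in 18 WT cells and 133 in 48 TSK cells, 5.27 and 2.91 CPM. These are levels over each library as a whole, and the intervals of WT and TSK did not overlap for any of these 3 genes. The share of all genes with such intervals was not counted, so this does not set these 3 genes apart. The other members were scarcer. Cd79b had 30 and 40 UMIs (1.76 and 0.876 CPM), Ms4a1 had 27 and 36 (1.58 and 0.788 CPM) and Ighd had 6 and 20 (0.351 and 0.438 CPM). Jchain had no UMI in WT, which allows up to 0.176 CPM, and 10 UMIs (0.219 CPM) in TSK.

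On the log2 scale the ratio of TSK over WT was -0.94 (95% interval -1.19 to -0.68) for Ighm, -0.86 (-1.25 to -0.45) for Igkc, -1.0 (-1.72 to -0.27) for Cd79b and -1.0 (-1.76 to -0.23) for Ms4a1. Cd79a stood at 1.04 (0.61 to 1.5) and Ighd at 0.32 (-1.05 to 1.92), and for Jchain, with no WT UMI, the interval began at -0.25 and so allows no difference. At a fold of 2 or more, Cd79a was higher in TSK and 2 members were lower (Cd79b and Ms4a1), where 20.1% of the 19059 genes tested were higher and 19.5% lower. The intervals of Cd79a, Cd79b and Ms4a1 also held folds under 2. Jchain was not read as higher, although the share of all genes counts the 147 genes with no WT UMI as higher. The median log2 ratio was -0.86 over the members and 0.11 over all genes tested.

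These library-wide ratios moved with the cells taken. In cells outside the cancer-like and unnamed clusters the log2 ratio was 0.28 for Ighm (-0.01 to 0.57), 0.92 for Igkc (0.51 to 1.33), 0.78 for Cd79b (0.03 to 1.54) and 0.27 for Ms4a1 (-0.64 to 1.18). All 4 ratios thus changed sign, while Ighd, at 2.20 (0.83 to 3.81), and Cd79a, at 0.33 (-0.32 to 0.97), kept theirs. With the upper limit of 10000 UMIs per cell that the study's methods state, the 6 ratios were 0.32 for Ighm, 1.52 for Igkc, 1.06 for Cd79b, 0.078 for Ms4a1, 2.35 for Ighd and 2.42 for Cd79a. Igkc also rested on 1 WT cell, since its log2 ratio was -0.19 (-0.67 to 0.32) without the cell of each library with the most Igkc UMIs, and Cd79a stood at 1.56 without its own such cells. The total UMIs of cancer-like cells, 34529413 in TSK and 3419672 in WT, enter every library-wide level as part of the denominator, and their part in the ratios was not tested beyond these values.

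**Figure D1:**
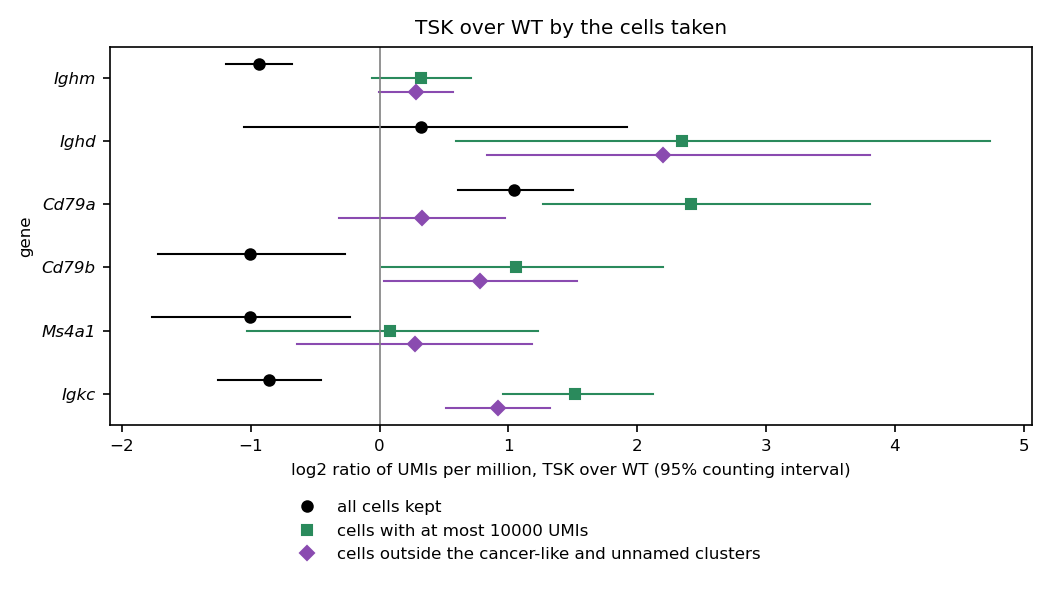
Log2 ratio of CPM, TSK over WT, for the 6 members with UMIs in both libraries, with 95% counting intervals, over all cells kept (black), cells with at most 10000 UMIs (green) and cells outside the cancer-like and unnamed clusters (purple). Ighm, Cd79b, Ms4a1 and Igkc lie below 0 over all cells, at -0.94, -1.0, -1.0 and -0.86, and above 0 in both other selections.

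Joint detection used the 5 genes Ighm, Ighd, Cd79a, Cd79b and Ms4a1, and left Igkc and Jchain aside. In WT, 1277 cells held none of the 5 genes, 151 held 1, 12 held 2, none held 3, 1 held 4 and 1 held all 5. In TSK the numbers were 2614, 306, 29, 7, 2 and 3. Cells with UMIs of at least 3 of the 5 genes are called joint B cells here, 2 in WT (0.139% of cells, 0.0168% to 0.50%) and 12 in TSK (0.405%, 0.210% to 0.707%). The log2 ratio of these shares was 1.55 with an interval from -0.62 to 4.75, which holds 0. The reading depends on the denominator, since over the immune clusters the shares were 2 of 975 (0.205%) and 12 of 1166 (1.03%), a log2 ratio of 2.33 (0.16 to 5.53) that rests on the same 14 cells. Just below the threshold, the 12 WT and 29 TSK cells with exactly 2 of the genes were mainly 9 macrophage-like cells in WT and 20 cancer-like cells in TSK.

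Depth and the share of cells with Igkc, neither used to set the threshold, changed with the number of genes detected, with overlap at the threshold. TSK cells with 1 or 2 of the genes were deep, with medians of 28196 and 42350 UMIs, against 6311 in cells with none. TSK cells with 3, 4 or 5 genes were shallow, with medians of 1956, 2922 and 2952 UMIs. In WT the medians were 7361, 10137 and 17541 UMIs with none, 1 and 2 of the genes. The 2 WT joint B cells had 5170 and 12400 UMIs, the second over the medians for none and 1 gene. Igkc was present in 22 of 2614 TSK cells with none of the 5 genes (0.842%), in 10 of 306 with 1 gene (3.27%), in 5 of 29 with 2 (17.2%) and in 6 of 7 with 3 (85.7%). All 5 TSK cells with 4 or 5 genes and both WT joint B cells held Igkc. In WT the share with Igkc was 0.783% with none of the genes, 3.31% with 1 gene and 8.33% with 2. The cells with exactly 2 genes that clustered with the joint B cells resembled them in both respects. They were 6 TSK cells of 1700 to 2887 UMIs, 5 of them with Igkc, and 1 WT cell of 3670 UMIs with 8 UMIs of Igkc, so the threshold leaves out cells like those it takes.

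**Figure D2:**
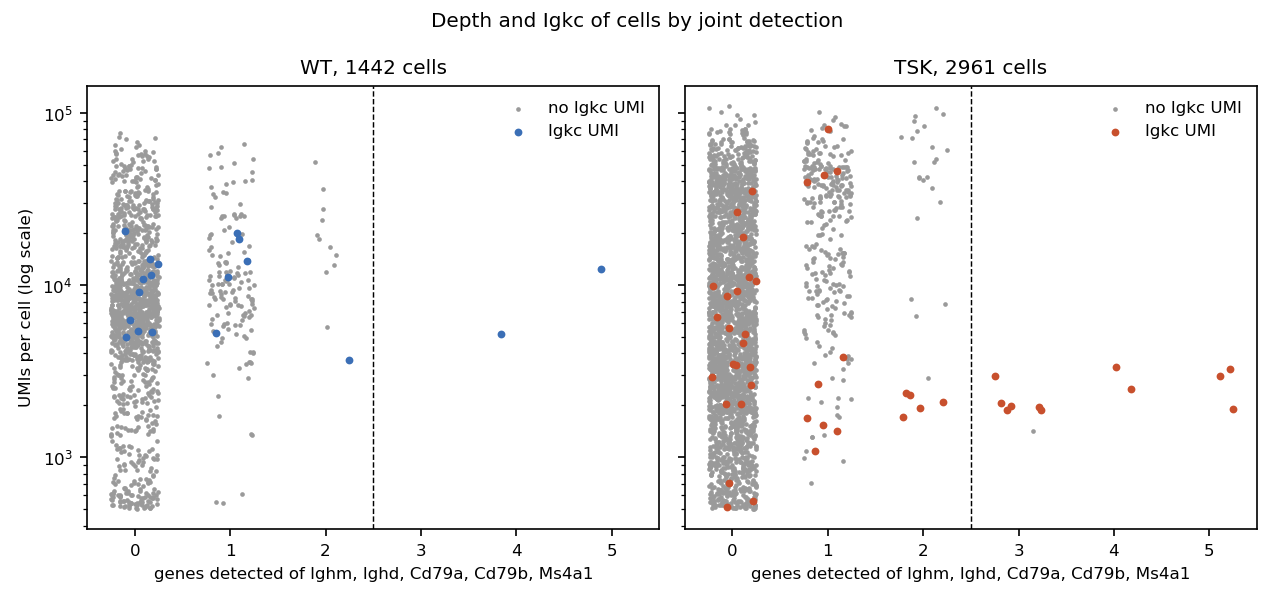
UMIs per cell (log scale) against the number of the 5 genes Ighm, Ighd, Cd79a, Cd79b and Ms4a1 detected in the cell, for the 1442 WT and 2961 TSK cells, with cells that hold an Igkc UMI in color and the dashed line at the threshold of 3 genes. Right of the line, 13 of 14 cells hold Igkc, and the TSK cells there lie between 1412 and 3357 UMIs, under the bulk of the TSK cells with 1 or 2 genes.

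The WT library's 2 joint B cells differed in depth and in their leading genes. The cell with 5170 UMIs held 17 UMIs of Ighm, 2 of Ighd, 3 of Cd79a, 6 of Cd79b, none of Ms4a1 and 11 of Igkc. The cell with 12400 UMIs held 4 of Ighm, 2 of Ighd, 16 of Cd79a, 1 of Cd79b, 3 of Ms4a1 and 39 of Igkc, the highest count of Igkc in any cell of either library. This deeper cell lies over the study's own limit of 10000 UMIs, and 1 of the 2 WT cells also held UMIs of 2 monocyte markers. No doublet caller was run.

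The 12 TSK joint B cells had between 1412 and 3357 UMIs (median 2026). Their counts ran from 0 to 11 for Igkc (median 5), 0 to 5 for Ighm (median 2), 0 to 5 for Cd79a (median 2), 0 to 3 for Ighd (median 1), 0 to 4 for Cd79b (median 1) and 0 to 4 for Ms4a1 (median 1). In CPM, the 2 libraries overlapped in these cells for each gene. Ighm stood at 1195 CPM in WT and 926 in TSK, Cd79a at 1081 and 926, and Igkc at 2846 and 2279, and every interval of the log2 ratio of TSK over WT held 0 (-0.37 for Ighm, -0.22 for Cd79a, -0.32 for Igkc, 1.32 for Ighd, 0.42 for Cd79b and 1.32 for Ms4a1).

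Both partners of the signalling dimer were seen together in 8 of the 14 joint B cells, and all 14 held at least 1 of Cd79a and Cd79b. Of the 14, 10 held Ighm together with Ighd, the pair that naive B cells express, and 3 held Ighm without Ighd. These genes are part of the rule that chose the cells, so the rule itself favors such pairs. Of the 13 other B-like cells without Siglech, 0 held Cd79a with Cd79b and 1 held Ighm with Ighd. By the rule those cells hold fewer than 3 of the genes, so the pairs do not bear on identity. Igkc, outside the rule, was present in 13 of the 14 joint B cells. Genes of λ light chains were present in 7, all of which also held Igkc. No joint B cell held Jchain or a UMI of Ighg1, Ighg2b, Ighg2c, Ighg3, Igha or Ighe, the constant regions of switched antibodies. Variable region genes were scarce, as 3 of the 14 cells held a κ variable gene and 1 a heavy chain variable gene, so the receptors of different cells could not be compared at this depth.

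Markers outside the rule checked the identity of these cells. Of 12 B lineage markers that are no members, the 14 cells held between 3 and 10 (median 6). Ebf1, a transcription factor of early B cells that fibroblasts also express, was present in all 14, Bank1, an adaptor of receptor signalling, in 13, Ly6d in 11 and Pax5, the factor that fixes B cell identity, in 10. Markers of several other cell types were at or near 0. In the TSK cells, summed over the list, T cell markers reached at most 1 UMI (1 of 10 genes seen), NK cell markers none of 8 genes, macrophage markers at most 3 UMIs (2 of 9 genes), cancer cell markers at most 1 (2 of 7 genes) and plasmacytoid dendritic cell markers at most 1 (1 of 9 genes). In the WT cells T, NK and macrophage markers were at 0. Other lists reached higher sums. Dendritic cell markers summed to at most 7 UMIs in a WT cell (1 of 8 genes seen) and 2 in a TSK cell, plasmacytoid dendritic cell markers to 3 in WT (1 gene), monocyte markers to 2 in WT and 4 in TSK (1 of 6 genes), and plasma cell markers to 4 in WT and 3 in TSK. The B lineage markers summed to 43 and 80 UMIs in the WT cells and to between 4 and 42 in the TSK cells, so in the TSK cells with fewest the sums of different lists are close to each other.

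Clustering placed 13 of the 14 in a single cluster of 31 cells, 3 from WT (0.208%) and 28 from TSK (0.946%). The cluster was led by Ebf1, Bank1, Satb1, Cd83, Gm31243, Pax5 and Ly6d, and is called B-like. The cell outside it was a TSK cell with 1412 UMIs, 2 of them Ighm, 4 Cd79a and 1 Cd79b, in a cancer-like cluster, with no Igkc. Within the B-like cluster, 5 TSK cells of 3537 to 5494 UMIs carried Siglech, a receptor of plasmacytoid dendritic cells, and 6 to 9 of the 9 markers of that cell type. They held 7, 6, 5, 3 and 2 UMIs of Ighm but none of Ighd, Cd79a, Cd79b or Ms4a1, and 1 of them held Igkc (2 UMIs). Without these 5 cells the cluster held 3 WT and 23 TSK cells, or 0.208% and 0.777% of all cells, and the log2 ratio of TSK over WT was 1.90 (0.17 to 4.28). Over all cells kept, the share by this cluster thus had an interval without 0 and the share by joint detection did not.

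**Figure D3:**
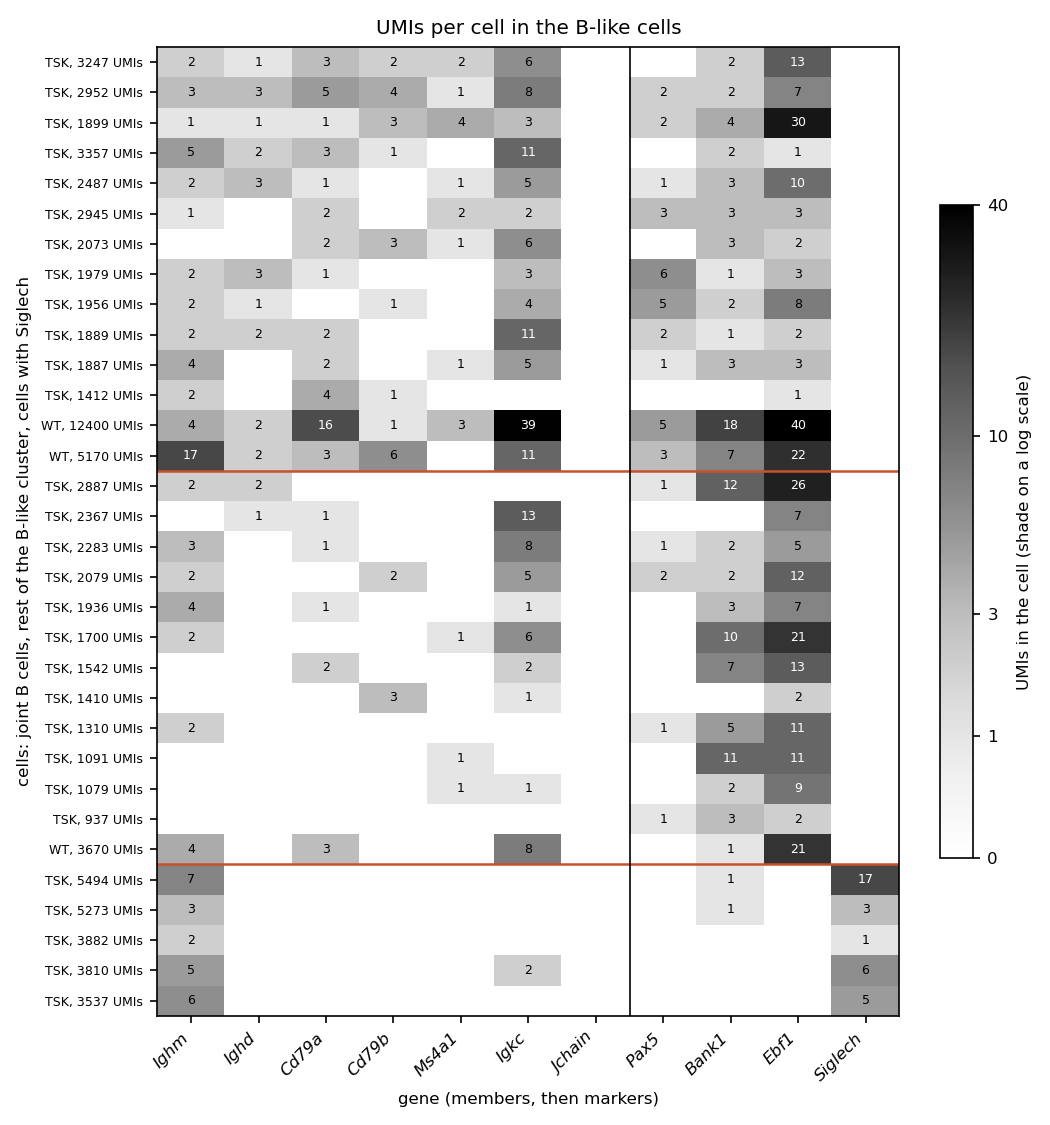
UMIs of the 7 members and of 4 marker genes (columns) in each cell (rows, labelled with library and total UMIs), with red lines between the 14 joint B cells, the 13 other cells of the B-like cluster and the 5 cells with Siglech, and shade on a log scale. Igkc fills 13 of the first 14 rows and Jchain none, and the cells with Siglech hold Ighm alone of the 5 genes of the rule.

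Genes of the B cell program accompanied the members in the joint B cells, as counts over 14 cells with 45653 UMIs in all. At a fold of 2 or more over all other cells, 7.93% of 24882 genes were higher, and genes with no UMI in the joint B cells cannot pass. For receptor signalling and co-receptor genes, 16 of 18 passed, led by the Src-family kinase gene Lyn (71 UMIs, 1555 CPM against 170), the kinase gene Syk (28 UMIs, 613 against 52.5) and the adaptor gene Blnk (17 UMIs, 372 against 10.1). The exceptions were Cd81 and Fcgr2b, at 43.8 against 144 CPM and 21.9 against 74.2 CPM. All 10 B lineage transcription factors passed, among them Ebf1 (145 UMIs), Bach2, which holds back plasma cell differentiation (98), Mef2c (52), Pax5 (30) and the coactivator gene Pou2af1 (21). Of 20 surface and antigen presentation genes, 18 passed, led by the class II genes Cd74 (239 UMIs in all 14 cells, 5235 CPM against 718), H2-Aa (106), H2-Eb1 (71) and H2-Ab1 (63).

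Lists of more specialised B cells had few UMIs in these cells. Germinal centre genes passed in 1 of 8, Bcl6 (4 UMIs). Marginal zone and B1 genes passed in 2 of 9, the complement receptor gene Cr2 (3 UMIs) and Dtx1 (1 UMI). Plasma cell genes passed in 3 of 10, Irf4 (7 UMIs), Eaf2 (4) and Mzb1 (2), while Xbp1 had 2 UMIs at 43.8 CPM against 94.9 in other cells, and Prdm1, Sdc1, Derl3, Fkbp11, Tent5c and Tnfrsf17 had none. Of the genes for homing and survival, the cells held the receptor genes Ccr7 (13 UMIs), Cxcr4 (9), Cxcr5 (6) and Tnfrsf13b (1), and the ligand gene Ltb (7).

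Over all cells kept, Ighm, Cd79a, Cd79b and Ms4a1 had most of their UMIs outside B cells, and Ighd had most inside. For each gene of the rule, cells with at least 2 of the other 4 genes were chosen, and the share of its UMIs in them was taken over both libraries. The chosen sets ran from 23 cells for Ighm to 51 for Ighd. A chosen cell that also holds the gene is a joint B cell by definition, and the others add no UMI. The shares are therefore shares in the joint B cells, and leaving the gene out did not free them from the rule. For Ighd the share was 76.9% (20 of 26 UMIs, 56.4% to 91.0%), for Cd79b 31.4% (22 of 70), for Ms4a1 23.8% (15 of 63), for Cd79a 13.6% (45 of 332) and for Ighm 8.95% (47 of 525, 6.65% to 11.7%). For Igkc, which the rule did not use, 114 of 223 UMIs (51.1%, 44.4% to 57.9%) were in the joint B cells, and for Jchain 0 of 10. In cells with at most 10000 UMIs most UMIs of Cd79a (51.8%) and Cd79b (51.2%) were in B cells, and the share was 17.3% for Ighm and 38.7% for Ms4a1. Over all cells kept, Ighd was thus the member with the largest share in joint B cells, which its own detection helps to define. The cells with Ighd carried other receptor genes as well. All 11 TSK cells and 3 of the 4 WT cells with Ighd held at least 1 of the other 4 genes, against 23.9% of TSK and 10.2% of WT cells with Ighm, and 17.0% and 21.4% of cells with Cd79a. By the same measure, 67.7% of Pou2af1 and 66.7% of Pax5 UMIs were in the joint B cells, against 1.38% of Ebf1 UMIs, of which most (9043 of 10539) were in fibroblast-like, pericyte-like and endothelial-like cells.

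**Figure D4:**
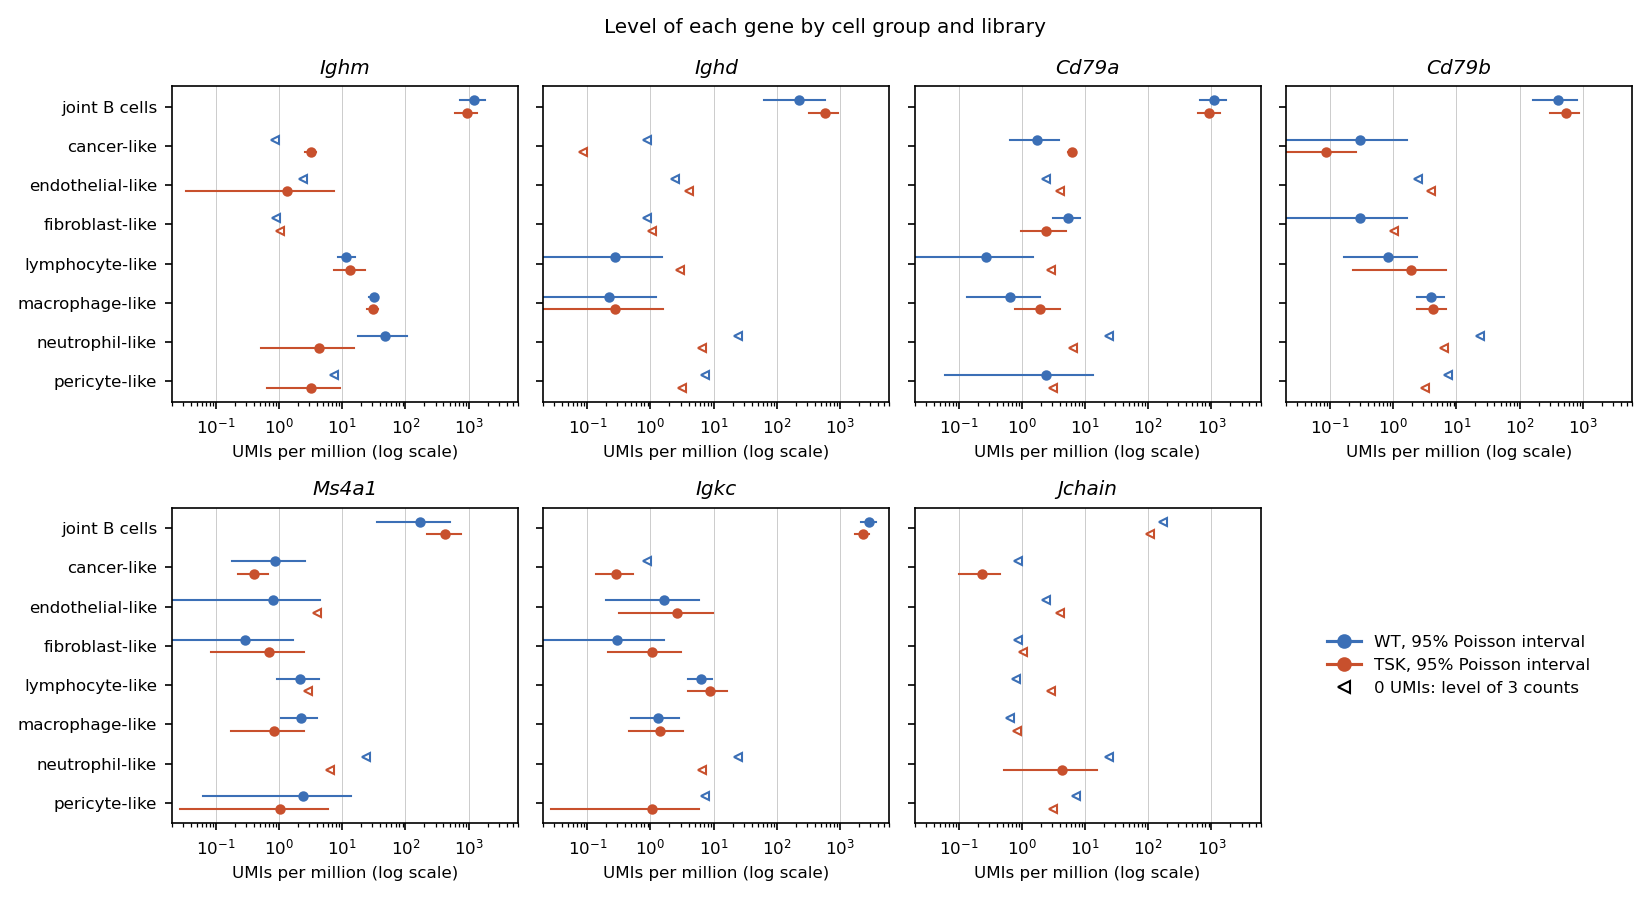
Level in CPM (log scale) of each member in the joint B cells and in 7 groups of cells named from markers, without the joint B cells, in WT (blue) and TSK (red), with 95% Poisson intervals and open triangles at the level of 3 counts where no UMI was seen. Igkc stands at 2846 and 2279 CPM in the joint B cells and at most at 8.67 CPM in the 7 groups, and Ighm stands at 31.4 and 30.5 CPM in macrophage-like cells. The rest of the B-like cluster is not drawn and held Igkc at 2180 CPM in WT (1 cell) and 915 CPM in TSK (17 cells).

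Outside B cells, the 5 TSK cells with Siglech held Ighm at 1046 CPM (23 of 21996 UMIs). Among the named groups outside the B-like cluster, and apart from the 35 WT neutrophil-like cells, Ighm was highest in macrophage-like cells in both libraries, at 31.4 CPM in WT (143 UMIs in 69 of 418 cells, 16.5%) and 30.5 CPM in TSK (109 UMIs in 49 of 556 cells, 8.81%). Shares of cells follow depth, and after thinning each cell to 500 UMIs they were 1.53% and 1.28%. Fibroblast-like cells had no Ighm UMI in 150 WT cells or 238 TSK cells although they were deeper (medians of 22761.5 and 11075.5 UMIs), which allows up to 0.880 and 1.04 CPM. The macrophage-like level was therefore not a level shared by all cell types.

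Within the macrophage-like cells Ighm was uneven. A cluster of 99 cells led by Ccl8, Mrc1, F13a1 and Retnla held Ighm at 190 CPM in WT (55 UMIs, 21 cells) and 134 CPM in TSK (85 UMIs, 78 cells), a log2 ratio of -0.50 (-1.01 to 0.02). The largest macrophage-like cluster, led by Arg1 and Lyz2, held 19.9 CPM in WT and 7.55 CPM in TSK (log2 ratio -1.4, interval -2.19 to -0.68). The third cluster held 27.9 and 13.5 CPM (log2 ratio -1.05, interval -3.15 to 0.71). The ratio was thus below 0 in all 3 clusters, with an interval without 0 in the largest, while over all macrophage-like cells it was -0.046 (-0.42 to 0.32), and the cluster with most Ighm held 78 of 556 macrophage-like cells in TSK and 21 of 418 in WT. The cluster with most Ighm was also the one with markers of resident macrophages, with Folr2 in 86.9%, the hyaluronan receptor gene Lyve1 in 61.6% and the scavenger receptor gene Cd163 in 44.4% of its cells. Over all macrophage-like cells, Lyve1 was present in 29.7% of the 118 cells with Ighm and 3.62% of the 856 without, and Arg1 in 16.1% and 62.1%. Igkc was present in 1.69% and 0.584% of the same cells, so the light chain did not accompany the heavy chain there as it did in the joint B cells. Cells with Ighm were deeper (median 9725.5 against 6391 UMIs), and the part of depth in these shares was not tested beyond the thinned values.

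Ighm also differed between libraries in other groups. In cancer-like cells it had 110 UMIs in 51 of 1299 TSK cells (3.19 CPM) and none in 142 WT cells. This is at least 3.63-fold higher in TSK against a level of 3 WT counts, and the exact interval of the log2 ratio began at 1.54. That interval treats UMIs as independent, although 31 of the 51 cells held 2 or more and 1 cell can hold up to 7, so it is too narrow. The libraries differed in their mix of cancer-like clusters, as 73 of the 110 UMIs lay in a cluster with 439 TSK and 4 WT cells, where the interval began at -2.15. In the cluster with most WT cells (81, against 476 in TSK) TSK held 35 UMIs, at least 2.10-fold higher, with an interval from 0.70. When each cell was named alone, 1.14% of WT and 3.83% of TSK cancer-like cells held Ighm. Of the TSK cancer-like cells with at most 10000 UMIs, 0.244% held it. In neutrophil-like cells it had 6 UMIs in 35 WT cells (47.9 CPM) and 2 UMIs in 221 TSK cells (4.31 CPM). Lymphocyte-like cells, T and NK cells by their markers, held it at 11.6 CPM in WT and 13.5 CPM in TSK.

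Cd79a had 78.3% of its TSK UMIs in cancer-like cells, which held 75.6% of all TSK UMIs. In WT the share was 11.8% (6 of 51 UMIs) against 3419672 of 17070622 UMIs of all genes, and more WT UMIs of Cd79a were in the B-like cluster (22) and in fibroblast-like cells (18). TSK cancer-like cells held 216 UMIs in 161 of 1299 cells (12.4%, 6.26 CPM) and WT cancer-like cells 6 UMIs in 6 of 142 cells (4.23%, 1.75 CPM), a log2 ratio of 1.83 (0.69 to 3.30). Within the cancer-like cluster that held most WT cells, the levels were 4.80 and 1.73 CPM, a log2 ratio of 1.47 (0.19 to 3.14). Few of the 167 cancer-like cells with Cd79a held its partner Cd79b (0.599%) or Igkc (1.80%), against 0.157% and 0.549% of the 1274 cancer-like cells without Cd79a. Ebf1 was present in 14.4% of the cells with Cd79a and 8.40% of those without, Pax5 in 1.80% and 0.0785%, and Lgals7 in 97.0% and 80.2%. The cells with Cd79a were deep (median 42566 UMIs against 20753.5 in cancer-like cells without Cd79a), and the part of depth in these shares was not tested. Among cancer-like cells with at most 10000 UMIs, 0.244% held Cd79a in TSK and none did in WT, and after thinning to 500 UMIs the shares were 0.208% and 0.0603%.

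Fibroblast-like cells held Cd79a at 5.28 CPM in WT (15 of 150 cells) and 2.43 CPM in TSK (7 of 238 cells), and an unnamed TSK-rich cluster held it at 14.3 CPM. The nearest gene downstream, Arhgef1, starts 714 bases beyond Cd79a on the same strand and stood at 21.9 CPM in WT and 21.8 CPM in TSK cancer-like cells. Rps19, the next gene upstream, is 7574 bases away and stood at 3871 and 4013 CPM. The part of reads from neighbouring genes in the counts of Cd79a was not tested.

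Cd79b was found outside B cells mainly in macrophage-like cells, at 3.96 CPM in WT (12 of 418 cells) and 4.19 CPM in TSK (13 of 556), and in cancer-like cells it stood at 0.292 and 0.0869 CPM. Ms4a1 was spread thinly, with 10 UMIs in macrophage-like and 8 in lymphocyte-like WT cells, and 14 UMIs in TSK cancer-like cells (0.405 CPM). Igkc outside B cells was highest in lymphocyte-like cells, at 6.23 CPM in WT (10 of 519 cells) and 8.67 CPM in TSK (8 of 360 cells), and stood at 0.290 CPM in TSK cancer-like cells. Ighd had 1 UMI each in a WT lymphocyte-like cell, a WT macrophage-like cell and a TSK macrophage-like cell. For Cd79b in macrophage-like and Igkc in lymphocyte-like cells the intervals of the 2 libraries overlapped.

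No cell held Jchain together with Igkc. Of the 9 TSK cells with Jchain, 7 were cancer-like and 2 neutrophil-like, none held Igkc, and no cell held more than 2 Jchain UMIs. The 7 cancer-like cells held at least 2 of 10 other plasma cell markers and also Lgals7, and no WT cell met that criterion, which allows a share of up to 0.208%. Igkc with at least 2 of these markers was seen in 10 WT cells, 5 of them lymphocyte-like and 1 in the B-like cluster, and in 12 TSK cells, 6 of them cancer-like and 2 in the B-like cluster. Sdc1, Prdm1 and Igkc were seen together in 2 TSK cells. Several of the markers were common outside plasma cells. Cancer-like cells held 60.5% of all UMIs of both libraries, and 87.4% of the UMIs of Fkbp11, 73.9% of Derl3, 70.0% of Sdc1 and 57.8% of Xbp1. The more restricted genes were scarce, with 7 UMIs of Mzb1 and 2 of Tnfrsf17, the receptor BCMA, in all cells. Switched heavy chains gave 10 UMIs of Igha and 1 of Ighg2c, none in a joint B cell, and Ighg1, Ighg2b, Ighg3 and Ighe gave none. Only the WT cell with 39 UMIs of Igkc had 20 or more. The label of plasma cell genes thus rests on the known role of Jchain.

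Genes most like each member were ranked by Pearson's r of log-scaled UMIs over 4403 cells, a description in which most cells are at 0 and cells share their library and depth. Among the 3 leading genes were Pax5 (0.65), Fcmr (0.57) and Pou2af1 (0.49) for Ighd, Pax5 (0.56) and H2-Ob (0.55) for Igkc, and Ly6d (0.50) and Pax5 (0.48) for Cd79a. For Cd79b they included Fcer2a (0.44) and Fcmr (0.40), for Ighm Ly6d (0.42), Bank1 (0.39) and Pax5 (0.38), and for Ms4a1 Bank1 (0.42) and Fcmr (0.37). Each of these 6 members thus had genes of the B cell lists among its 3 leading genes. Jchain differed, led by Tro (0.56), Gm42560 (0.55) and Appbp2os (0.48), none of them on a B cell list.

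Between the libraries, the other genes of the pathway were mostly lower in TSK over all cells kept. At a fold of 2 or more, 12 of 17 receptor signalling genes tested were lower and 1 higher, with a median log2 ratio of -1.26. Over all genes tested 19.5% were lower and 20.1% higher, with a median of 0.11. The counts were 6 lower and none higher of 10 B lineage transcription factors (median -1.25), and 11 lower and 1 higher of 20 surface and antigen presentation genes (median -1.58). Many of these genes are shared with other cells. Cd74, at -2.24, and Ptprc, the pan-leukocyte gene, at -2.40, had 45227 and 10376 UMIs in all, of which 239 and 21 were in the joint B cells. Pax5 and Pou2af1, which had most of their UMIs in the joint B cells, stood at 0.39 and -0.95. Plasma cell genes went both ways (2 higher and 3 lower of 8, median 0.14), and of germinal centre genes 2 of 6 were lower and none higher (median -0.60). Marginal zone and B1 genes were lower in 4 of 8 (median -1.17). TSK held more cancer-like and fewer lymphocyte-like cells, as given above, and the part of this shift in the list medians was not tested.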

How the data were processed

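Per the labels, cells of pooled tumors were prepared with the 10x Genomics protocol for 3′ ends, and the authors deposited raw UMI counts per gene and barcode, with no normalization. The file headers name Cell Ranger 7.1.0 and the submitters' processing notes 7.1.1 and mm10; whether intronic reads were counted is not given in the sources used here. Reads near 3′ ends do not resolve isoforms.

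Cells were filtered as described, scaled to 10000 UMIs and log-transformed. From 2000 variable genes, without 396 immunoglobulin genes and members, 30 principal components were taken, and a graph of 20 neighbours was clustered by the Leiden method (resolution 1), giving 17 clusters. A name needed 3 or more markers, each found in 10% of the cluster and 2-fold over other clusters (pseudocount 0.1), and 2 or more of them among the 50 leading genes. Under this rule 3 clusters had no name. Doublets were left in. Levels are UMI sums scaled to 1000000 UMIs (CPM) with Poisson intervals, shares have binomial (Clopper-Pearson) intervals and ratios have conditional intervals, all exact. Genes with at least 10 UMIs were tested, and a count of 0 was taken to allow 3 counts. With 1 library per genotype no test across samples exists. Named genes are the members, the 3 genes most correlated with each, and genes of lists for pathways and cell types, and some genes that this rule names are not reported here. The members and lists were chosen with earlier results of these data known. On Poisson counts simulated for all cells kept (18730 genes), 98.4% of 182 genes changed 4-fold passed 2-fold, as did 3.35% of unchanged genes. In the same simulation 95.8% of intervals held the true ratio. The intervals assume the same Poisson model, so these values check the calculation only. UMIs clumped in single cells and differences between mice were not simulated. Alternatives concerned the number of genes for joint detection, depth and mitochondrial limits, shared barcodes, denominators, weighting, scaling and cell naming. The tools were scikit-learn 1.9.0, igraph 0.11.9, leidenalg 0.10.2, scipy 1.17.1 and numpy 2.4.6 under Python 3.11.15, with tables in pandas 2.3.3 and figures in matplotlib 3.10.9.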

Additional observations from a re-analysis of the deposited data

Results flagged for a closer look

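The ratio of TSK over WT for Ighm went opposite ways in cancer-like cells, at least 3.63-fold higher in TSK against a level of 3 WT counts (exact interval of the log2 ratio from 1.54, and at least 2.10-fold in the cluster with most WT cells), and in neutrophil-like cells, where the log2 ratio was -3.48 (95% interval -6.82 to -0.99, from 6 WT and 2 TSK UMIs). These intervals treat UMIs as independent, although 31 of the 51 TSK cancer-like cells with Ighm held 2 or more. The libraries differed in their mix of cancer-like clusters, and the difference between the groups of cells was not tested.

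Barcodes left out of the cells, 890 in WT and 1475 in TSK, also held UMIs of the members above the level that a count of 0 allows. The WT barcodes held 8 UMIs of Ighm, 5 of Cd79a and 10 of Ms4a1. The TSK barcodes held 16 UMIs of Cd79a, all in barcodes over the mitochondrial limit, and 14 of Igkc. None of these barcodes held 3 or more of the 5 genes of joint detection, and 1 WT barcode held 2.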

How the results depend on the processing

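Of 162 alternative values for 32 results, 98 lay within the interval of the main value, or near it for a count, and 54 lay outside. The other 10 changed sign from a main value whose interval left out 0. A value within a wide interval can still differ much in size. The log2 ratio of the B cell share was 1.55, and 0.28 with at least 4 of the 5 genes, which counts among the 98. Changes of sign in the log2 ratio of TSK over WT came with at most 10000 UMIs per cell (Ighm 0.32, Cd79b 1.06, Ms4a1 0.078, Igkc 1.52), without the cancer-like and unnamed clusters (0.28, 0.78, 0.27 and 0.92; added after the data were seen) and with equal weight per cell (Cd79b 1.05, Igkc 1.34). With equal weight Ighm stood at -0.19, Ighd at 2.23, Cd79a at 1.61 and Jchain at 0.550 CPM. Ighd moved to 2.35 and 2.20 and Cd79a to 2.42 and 0.33 under the first and second of these choices, and without the top cells Cd79a stood at 1.56 and Igkc at -0.19. Scaling by the median of gene ratios shifted every ratio by 0.10 and changed no sign.

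Joint detection with at least 2 of the 5 genes gave 0.971% of cells in WT and 1.38% in TSK, and with at least 4 it gave 0.169% in TSK. The TSK share was 0.946% by the B-like cluster, 0.777% without its cells with Siglech and 1.03% of immune cells. The share of UMIs in B cells, with 1 gene fewer and 1 gene more in the rule, was 23.8% and 6.48% for Ighm, 96.2% and 53.8% for Ighd, 25.3% and 9.64% for Cd79a, and 69.5% and 37.2% for Igkc; with 1 gene fewer it was 45.7% for Cd79b and 44.4% for Ms4a1. With at most 10000 UMIs it was 17.3% for Ighm, 51.8% for Cd79a, 51.2% for Cd79b and 38.7% for Ms4a1. TSK cells with Jchain and plasma cell markers numbered 4 with at least 3 markers, 0 with at least 10 Jchain UMIs and 0 with at most 10000 UMIs per cell. Without the filter on low values, 6261 genes were 2-fold or more higher and 5984 lower in TSK.

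Macrophage-like cells with Ighm were 10.9% in WT with at most 10000 UMIs, and 1.53% in WT and 1.28% in TSK after thinning. Cancer-like cells with Cd79a were 0% in WT and 0.244% in TSK with at most 10000 UMIs, 0.0603% and 0.208% after thinning, and 14.6% in TSK when each cell was named alone. The cause of these changes was not tested. No paired analysis was possible because each genotype has 1 library. The 14 joint B cells limit every statement on B cells.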

Other observations

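Of 17 genes with UMIs on a list of factors that attract B cells or keep them alive and of their receptors, 5 had more UMIs in fibroblast-like cells than in any other group, 5 in macrophage-like and 5 in lymphocyte-like cells, among the last Ltb (1308 of 1407 UMIs) and Cd40lg (77 of 89). Cxcl13, the chemokine that draws B cells into follicles, stood at 94.4 CPM in WT fibroblast-like cells (322 UMIs in 25 of 150 cells) and 11.8 CPM in TSK (34 UMIs in 11 of 238 cells). Ccl19, a ligand of Ccr7, stood at 51.0 and 14.9 CPM in the same cells, and Tnfsf13b, which encodes the survival factor BAFF, at 34.3 and 13.2 CPM. Cxcl12 stood at 791 and 378 CPM in fibroblast-like and at 312 and 113 CPM in endothelial-like cells. Tnfsf13, the gene of the plasma cell survival factor APRIL, was mainly in macrophage-like cells, at 29.7 CPM in WT and 40.8 CPM in TSK. Over all cells kept, 13 of 16 genes of this list were 2-fold or more lower in TSK and none was higher (median log2 ratio -2.18), lymphocyte genes such as Ltb and Cd40lg included, where 19.5% of all genes tested were lower and 20.1% higher (median 0.11). Fibroblast-like cells were deeper in WT (median 22761.5 UMIs) than in TSK (11075.5), and the part of depth or of the library in these levels was not tested.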
